A study of Mus musculus with 6 samples.

Results

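The chemokine, interleukin and tumour necrosis factor (TNF) families were taken from a lung expression array by gene symbol. Members were all probes whose symbol began with Ccl, Cxcl, Ccr, Cxcr or Il followed by a digit, with Tnfsf or Tnfrsf, or was Tnf itself; Ccr7, Il7r and Il2rb were set aside. The rule looked at names and at no measured value. It gave 159 gene symbols with 226 probes, out of 18138 symbols and 25697 probes on the array.

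Lung RNA was taken at postnatal day 6 (P6) from male mice of the FVB strain (FVB/N in the study's methods), 3 of them hSRY-OFF and 3 hSRY-ON, and each mouse had its own array on Illumina MouseRef-8 BeadChips. Per the study's methods, the hSRY-ON mice carried 1 copy of the Signalox-hSRY transgene at the H11 locus, in which a DsRed2 reporter between loxP sites separates the CAG promoter, active in nearly all cells, from a tagged human SRY and an EGFP reporter. Cre protein from the oocytes of Ddx4-Cre mothers removed the reporter in the early embryo, so that the active transgene was not limited to the lung; the arrayed hSRY-ON mice had not inherited Ddx4-Cre. hSRY-OFF names the transgene before recombination, but the study also used littermates without it as controls, so that whether the hSRY-OFF lungs carried the silent transgene rests on their label. The transgene was studied in 1 line, and the hSRY-ON pups grew poorly and lacked milk, so that growth, feeding and transgene cannot be told apart here.

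Chemokines are small secreted proteins that draw leukocytes along a gradient through G protein-coupled receptors, and the lung uses them to place macrophages, neutrophils and lymphocytes. Interleukins act over short distances through paired receptor chains, most of which signal through Janus kinases and STAT proteins, whereas the IL-1 family and the TNF receptors signal mainly to NF-kB. Several members are brakes: Il1rn occupies the IL-1 receptor without activating it, Il18bp traps interleukin 18, and Ackr3 (listed here as Cxcr7) removes chemokine without classical G protein signalling.

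A probe was called detected on an array where its detection p-value, set against the negative control beads, was under 0.05. The arrays detected 13191 to 14134 probes each, of which 94 to 107 were members. Of the 226 member probes, 77 were detected on all 6 arrays, 54 on 1 to 5 arrays and 95 on none. The 95 were 42.0% of the members, against 38.9% of all probes. Of the interleukins themselves 24 of 41 probes were detected on no array, and Il4, Il6, Il10, Il12a, Il12b and Il17a were among their 21 undetected symbols. Among the CXC chemokines 3 of 18 probes were detected on no array. Probes for Jak1 and Irak1, which nearly all cells use, were also undetected, so that an undetected probe does not show that its gene was silent.

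**Figure D1:**
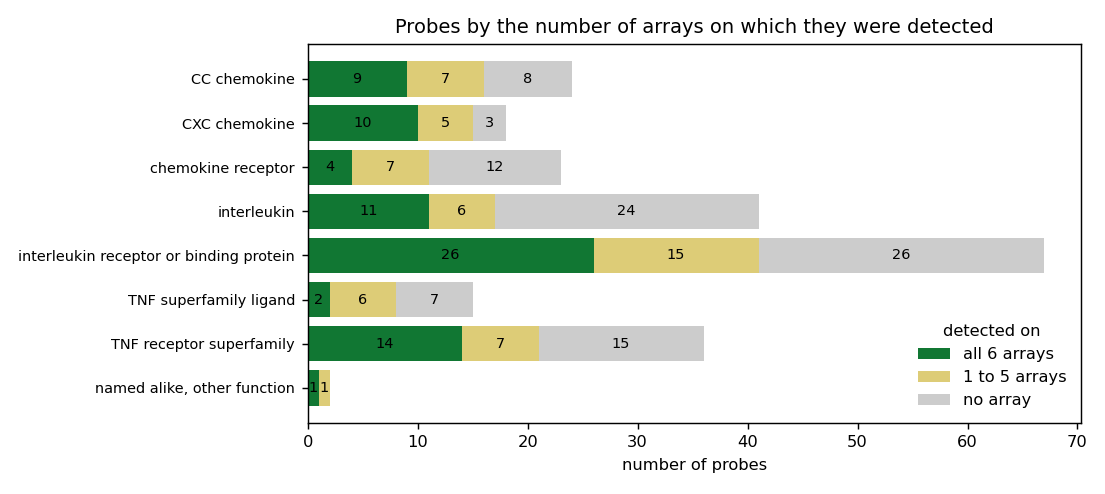
Number of member probes (x axis) in each role (y axis), split by the number of arrays on which the probe was detected at a detection p-value under 0.05. Among the interleukins, 24 of 41 probes were detected on no array, and among the CXC chemokines 10 of 18 were detected on all 6.

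Probes detected on at least 3 of the 6 arrays were tested, which left 99 member probes of 71 symbols. Values are log2 of the background-corrected, quantile-normalized intensity, and a change is the hSRY-ON mean minus the hSRY-OFF mean. A probe was called where the limma p-value, Benjamini-Hochberg adjusted over all 13841 tested probes, was under 0.05. Of the 99 member probes, 29 were called, or 29.3%, where 26.9% of all tested probes were called. The 17 called higher in hSRY-ON were 17.2% of the tested members against 13.6% of all tested probes, and the 12 called lower were 12.1% against 13.3%. With all 6 arrays the members were thus called about as often as the rest of the array. A called change of at least 2-fold was found for 15 members, 15.2% against 9.7% of all tested probes, and the median change was 0.16 for the members and -0.04 for all tested probes. Array by array, the median of the members minus their hSRY-OFF means was 0.178, 0.022 and 0.167 in hSRY-ON replicates 1 to 3. It was -0.007, 0.022 and -0.001 in hSRY-OFF replicates 1 to 3, so that hSRY-ON replicate 2 did not show the shift. The values of the groups did not overlap for 45 members, 45.5% against 46.6% of all tested probes. Without hSRY-OFF replicate 1, 2 or 3 the number of called members was 16, 16 and 17, which was 16.5%, 16.5% and 17.3% of the members then tested against 11.2%, 12.1% and 15.5% of all probes.

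**Figure D2:**
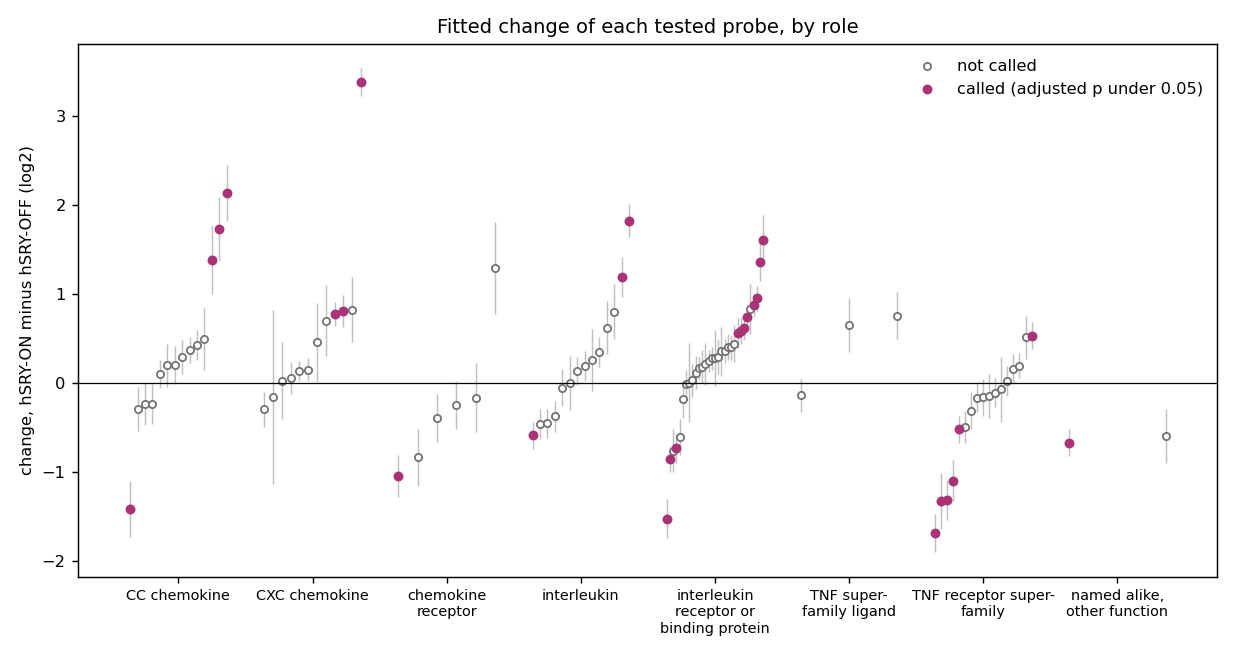
Change on the log2 scale, hSRY-ON minus hSRY-OFF (y axis), of each of the 99 tested member probes, grouped by role (x axis). Points are fitted changes, filled where called, and grey bars are 1 standard error either side (3 mice per group); Cxcl17 stands highest at 3.38 and the called TNF receptors lie mostly below 0.

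Lists of marker genes describe the cells of these lungs, which were whole tissue, so that fewer cells of a type and less RNA per cell cannot be told apart. For comparison, 13.6% of all tested probes were called higher and 13.3% lower. Of 8 tested macrophage markers 6 were called higher and 0 lower, and their summed linear level was 24864 to 27013 in hSRY-OFF and 35724 to 43993 in hSRY-ON; Itgax, Msr1 and Fabp4 were undetected. Of 9 tested neutrophil markers 4 were called higher and 0 lower, with sums of 8332 to 8745 and of 16298 to 48859, the last in hSRY-ON replicate 3; Mmp8 was undetected. Of 7 tested T cell markers 5 were called lower and 1, Thy1, higher, with sums of 2248 to 2397 and of 1301 to 2305; Cd4 and Cd8a were undetected. Of 7 tested endothelial markers 3 were called lower and 0 higher, with sums of 46751 to 49981 and of 33820 to 36372. Of 4 tested natural killer cell markers 2 were called lower and 1 higher, with sums of 439 to 581 and of 309 to 429; Ncr1 was undetected. Klrd1, called lower, gave a detected signal in every hSRY-OFF lung but in no hSRY-ON lung. It thus entered the test only through the group in which it was higher. Klrb1c, called higher, lay near the detection level, with means of 5.08 in hSRY-OFF and 5.59 in hSRY-ON. Sums that did not overlap were also seen for markers of thymocytes, 762 to 912 in hSRY-OFF and 517 to 570 in hSRY-ON, of cardiac muscle, 6162 to 8059 and 2092 to 3400, and of hepatocytes, 5540 to 6040 and 7535 to 10674. Of 2 tested thymocyte markers 1 was called lower, of 5 tested cardiac markers 1 lower, and of 3 tested hepatocyte markers 3 higher. Among the hepatocyte markers, Apoa1 and Ahsg gave no detected signal in any hSRY-OFF lung but did in every hSRY-ON lung. They thus entered the test only through the group in which they were higher. Trf, detected in all lungs, rose by 0.53 (adjusted p = 0.0436). Rag1, Rag2, Dntt, Themis, Alb, Ttr and Fgb were undetected. A linear sum weighs its brightest gene most, which was Cd1d1, Myl4 and Trf for these lists and Lyz2 for the macrophage markers. Sums overlapped between the groups for the markers of B cells, mast cells and basophils, dendritic cells, megakaryocytes and platelets, and fibroblasts. The epithelial markers, surfactant genes among them, marked the tissue as lung in both groups, with sums of 60530 to 64593 and of 61689 to 68991. What part these shifts have in the changes of single members was not tested.

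The largest change among the tested members was that of Cxcl17, a chemokine of mucosal epithelia that draws monocytes, macrophages and dendritic cells. Its value was 6.88, 6.59 and 6.37 in hSRY-OFF replicates 1 to 3 and 10.03, 10.09 and 9.87 in hSRY-ON replicates 1 to 3. The hSRY-ON lungs lay close together and far above every hSRY-OFF lung, a 10.4-fold rise (3.38 on the log2 scale, SE 0.16, adjusted p = 0.000249). No other CXC chemokine moved as far. Cxcl1, which recruits neutrophils through Cxcr2, rose by 0.81 (adjusted p = 0.0178), and Cxcl16, a membrane-bound ligand of Cxcr6 made by macrophages and epithelium, rose by 0.78 (adjusted p = 0.00799), each without overlap between the groups. None of the 12 tested CXC probes was called lower, where 13.3% of all tested probes were. Cxcl15, a chemokine particular to lung epithelium, was near 14.93 in hSRY-ON, where the highest value of any probe was 15.48, and changed by 0.14 (adjusted p = 0.404). The probe for Cxcl2, the close relative of Cxcl1, was detected on 1 hSRY-ON array and was not tested. Cxcl1 was no longer called without hSRY-OFF replicate 2 (adjusted p = 0.0639) or replicate 3 (adjusted p = 0.0619), and without background correction the changes of Cxcl17 and Cxcl1 were 2.22 and 0.44.

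Among the CC chemokines, 3 were called higher and 1 lower of 14 tested probes, where 13.6% and 13.3% of all tested probes were. Ccl9 and Ccl6, a pair of mouse chemokines made by macrophages and other myeloid cells, rose most. The value of Ccl9 was 9.47, 9.43 and 9.68 in the hSRY-OFF lungs and 11.03, 12.37 and 11.59 in the hSRY-ON lungs, a 4.4-fold rise (log2 change 2.14, SE 0.32, adjusted p = 0.00486). The value of Ccl6 was 9.05, 9.21 and 9.14 in hSRY-OFF and 10.47, 11.76 and 10.39 in hSRY-ON, a 3.34-fold rise (log2 change 1.74, SE 0.35, adjusted p = 0.0129). Both were highest in hSRY-ON replicate 2, and in both every hSRY-ON lung was above every hSRY-OFF lung. Ccl3, a macrophage inflammatory protein that acts on Ccr1, was detected on 1 hSRY-OFF array and all 3 hSRY-ON arrays. Its value was 5.05, 4.84 and 5.82 in hSRY-OFF and 6.82, 5.86 and 7.19 in hSRY-ON, a 2.62-fold rise (log2 change 1.39, SE 0.39, adjusted p = 0.0377). The highest hSRY-OFF lung and the lowest hSRY-ON lung nearly met.

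Ccl5, a chemokine that T cells and natural killer cells make in quantity, went the other way. Its value was 6.31, 7.07 and 7.21 in hSRY-OFF and 5.48, 4.95 and 5.93 in hSRY-ON, 2.66-fold lower (log2 change -1.41, SE 0.32, adjusted p = 0.0183). The groups did not overlap, and 2 of the 3 hSRY-ON arrays detected it. Ccl21a, which guides T cells and dendritic cells through Ccr7 and has near-identical copies that a probe may not tell apart, changed by 0.29 (adjusted p = 0.282). Ccl2, the main monocyte attractant, was detected on 1 hSRY-ON array alone and was not tested, with values of 5.30, 6.12 and 4.65 in hSRY-ON. Ccl6 was no longer called without hSRY-OFF replicate 1 (adjusted p = 0.053), nor Ccl5 without hSRY-OFF replicate 2 (0.0731), hSRY-OFF replicate 3 (0.0639) or hSRY-ON replicate 2 (0.0509), nor Ccl3 without hSRY-OFF replicate 1 (0.119), hSRY-OFF replicate 2 (0.126), hSRY-ON replicate 1 (0.0709) or hSRY-ON replicate 3 (0.082). Ccl3 was also lost with no detection filter (adjusted p = 0.0608), and with median scaling and no background correction (adjusted p = 0.0516). Without background correction the changes of Ccl3 and Ccl5 were 0.44 and -0.47.

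The 4 called CC chemokines follow each other in the map order of the Ccl genes of chromosome 11. In the RefSeq annotation of the mouse (GRCm38.p6) this order is Ccl2, Ccl7, Ccl11, Ccl12, Ccl8, Ccl1, Ccl5, Ccl9, Ccl6, Ccl3 and Ccl4. Only Ccl genes were ordered, so that genes of other names may lie between them. Ccl12 and Ccl8 had no probe under these names, and Ccl2, Ccl7 and Ccl1 were not tested. Along the row the changes were -0.23 for Ccl11 (adjusted p = 0.493), -1.41 for Ccl5, 2.14 for Ccl9, 1.74 for Ccl6, 1.39 for Ccl3 and 0.50 for Ccl4 (adjusted p = 0.325). The lowest and the highest change of all tested CC chemokines thus came from genes next to each other in this order.

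Promoters were read from RefSeq (GRCm38.p6) to show the sequence before the chemokines that rose, since NF-kB is a known activator of many of these genes and the transgene product is itself a DNA-binding protein. Of the 27 current symbols called, 16 higher and 11 lower, 14 and 8 had a promoter in the table used; Cxcl17 and Ccl5 were among those without. The NF-kB consensus was searched on both strands of the 250 bases before each annotated start. It was found before 2 of the 14 symbols called higher, Ccl9 and Cxcl1, and before 0 of the 8 called lower, where 5 of the 53 tested members with a promoter (9.43%) and 4.46% of all 27025 symbols held it; Cxcl10, Il16 and Il1r1, which were not called, were the other members. The capitals mark the match, which in Ccl9 lies on the other strand, 35 to 26 bases before the start, and in Cxcl1 is matched on both strands in overlapping positions, 71 to 61 bases before the start. The windows are chr11:83578637-83578886 on the minus strand for Ccl9 and chr5:90890995-90891244 on the plus strand for Cxcl1, printed 5′ to 3′ along the gene.
Ccl9: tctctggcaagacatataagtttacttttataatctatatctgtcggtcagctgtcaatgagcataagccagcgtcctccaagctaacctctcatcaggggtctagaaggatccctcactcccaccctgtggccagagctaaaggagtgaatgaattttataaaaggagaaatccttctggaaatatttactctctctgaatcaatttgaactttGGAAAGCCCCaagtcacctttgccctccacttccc
Cxcl1: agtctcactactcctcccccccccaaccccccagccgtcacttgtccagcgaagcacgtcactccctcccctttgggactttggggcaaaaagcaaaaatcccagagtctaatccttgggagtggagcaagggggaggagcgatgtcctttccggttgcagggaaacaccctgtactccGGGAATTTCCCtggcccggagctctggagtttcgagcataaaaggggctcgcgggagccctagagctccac
The core motif of SRY and related HMG-box proteins, AACAAT, was searched in the same windows on both strands. It was found before 0 of the 14 symbols called higher and 1 of the 8 called lower, Tmed1, where 9.43% of the tested members and 10.9% of all symbols held it.

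Of 6 tested probes for chemokine receptors, 1 was called, where 26.9% of all tested probes were. Cxcr7, now named Ackr3, a scavenging receptor of Cxcl12 found on endothelium and other cells, fell in hSRY-ON. Its value was 7.04, 7.40 and 7.80 in hSRY-OFF and 6.0, 6.53 and 6.59 in hSRY-ON, 2.06-fold lower (log2 change -1.04, SE 0.24, adjusted p = 0.0203) and without overlap. Cxcr4, the signalling receptor of the same ligand, had values of 9.40, 9.18 and 8.83 in hSRY-OFF and 8.54, 8.78 and 7.57 in hSRY-ON. Its groups did not overlap, but its change of -0.83 did not pass (adjusted p = 0.0954). Il8ra, now named Cxcr1, a neutrophil receptor, was detected on no hSRY-OFF array and on all 3 hSRY-ON arrays. Its value was 5.07, 4.94 and 5.23 in hSRY-OFF and 5.78, 7.72 and 5.63 in hSRY-ON, and it was not called (adjusted p = 0.105). The hSRY-ON mean lay 2.12-fold above the mean of the lowest levels detected on the hSRY-OFF arrays. That mean was raised by hSRY-ON replicate 2, which stood far above the other hSRY-ON lungs. Il8ra entered the test only through the group in which it was higher, and without background correction its change was 0.43. Probes for Ccr1, the receptor of Ccl9, Ccl6 and Ccl3, for Cxcr2, the receptor of Cxcl1, and for Cxcr6, the receptor of Cxcl16, were detected on no array. Cxcr7 was no longer called without hSRY-OFF replicate 2 (adjusted p = 0.0704) or replicate 3 (adjusted p = 0.0605), and without background correction its change was -0.46.

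In the IL-1 system a ligand and the antagonist rose, and no receptor chain was called. Il1b, the secreted inflammatory IL-1, had values of 7.21, 7.34 and 7.10 in hSRY-OFF and 7.92, 8.56 and 8.76 in hSRY-ON, a 2.29-fold rise (log2 change 1.19, SE 0.22, adjusted p = 0.0101). Il1rn, its receptor antagonist, had values of 6.42, 6.13 and 6.41 in hSRY-OFF and 7.80, 8.33 and 8.32 in hSRY-ON, a 3.55-fold rise (log2 change 1.83, SE 0.18, adjusted p = 0.00146), on 1 of its 3 probes; the others were detected on no array. Neither gene overlapped between the groups, and for both the lowest hSRY-ON lung was replicate 1. Il1a, the other IL-1 ligand, was seen on 1 array of the hSRY-OFF lungs and on 2 of the hSRY-ON lungs, and changed by 0.63 (adjusted p = 0.162). Il1r2, the decoy receptor of neutrophils and macrophages, was detected on 2 hSRY-ON arrays alone and was not tested. The tested probe of Il1r1, the signalling receptor, changed by -0.18 (adjusted p = 0.543), and the 4 tested probes of Il1rap, the shared receptor chain, changed by between -0.004 and 0.29 with none called. Without background correction the changes of Il1rn and Il1b were 0.905 and 0.71, both still called. Without hSRY-ON replicate 1 the change of Il1a was 0.92 and was called (adjusted p = 0.0383).

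Il33, an alarmin kept in the nuclei of lung epithelial and stromal cells, was the interleukin that fell, by 0.59 on the log2 scale (SE 0.15, adjusted p = 0.0285). Its value was 9.41, 9.30 and 9.44 in hSRY-OFF and 9.07, 8.62 and 8.71 in hSRY-ON, without overlap. It was no longer called when hSRY-OFF replicate 1, 2 or 3 was left out (adjusted p = 0.0991, 0.076 and 0.0915), or hSRY-ON replicate 2 or 3 (0.0756 and 0.0602). Il15, which sustains natural killer cells and memory T cells, had 3 tested probes with changes from -0.45 to 0.35, none called, so that no direction could be given for the gene. Il6 and Il10 were detected on no array.

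The receptor chains and binding proteins of interleukins formed the largest role, with 8 probes higher and 3 lower of 31 tested and a median change of 0.29. Of all tested probes 13.6% were called higher and 13.3% lower. Il6ra, the ligand-binding chain of the interleukin 6 receptor, had values of 5.44, 5.50 and 5.12 in hSRY-OFF and 7.16, 7.40 and 6.34 in hSRY-ON, a 3.06-fold rise (log2 change 1.61, SE 0.28, adjusted p = 0.00793). Every hSRY-ON lung was above every hSRY-OFF lung, and 2 of the 3 hSRY-OFF arrays detected it. The probe for its signalling partner Il6st was detected on 1 array of each group and was not tested. Il20rb, a chain shared by the receptors of interleukins 19, 20 and 24 on epithelium, had values of 6.24, 6.24 and 6.52 in hSRY-OFF and 7.22, 8.02 and 7.86 in hSRY-ON, a 2.58-fold rise (log2 change 1.37, SE 0.22, adjusted p = 0.00646). Its partner chain Il20ra rose by 0.59 (adjusted p = 0.0292), but another Il20rb probe changed by 0.22 and was not called. The other Il20ra probes were detected on no array. Both called probes of Il28ra, now named Ifnlr1, the epithelial receptor of interferon lambda, rose, by 0.95 (adjusted p = 0.00457) and 0.87 (adjusted p = 0.00481). Il11ra1 rose by 0.74 (adjusted p = 0.0114), Il13ra1, which serves interleukins 4 and 13, by 0.62 (adjusted p = 0.0147) and Il18bp by 0.56 (adjusted p = 0.0473); Il11ra1 has a near-identical copy from which the probe may also take signal.

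The interleukin receptor chains called lower were Il27ra, Il2rg and Il17rd. Il27ra, the receptor of interleukin 27 on T cells and natural killer cells, had values of 7.32, 7.62 and 7.17 in hSRY-OFF and 5.92, 5.41 and 6.19 in hSRY-ON, 2.87-fold lower (log2 change -1.52, SE 0.22, adjusted p = 0.00472). Another Il27ra probe changed by -0.60 and was not called (adjusted p = 0.0638). Il2rg, the common gamma chain that lymphocytes need for interleukins 2, 7 and 15, fell by 0.86 (adjusted p = 0.0063), with values of 8.21, 7.80 and 7.93 in hSRY-OFF and 7.12, 7.15 and 7.09 in hSRY-ON. Of the T cell markers 5 of 7 were called lower, but Thy1 was called higher and the summed level of hSRY-ON replicate 3, 2305, lay within the hSRY-OFF range; their part in these changes was not tested. Il17rd, a member that restrains fibroblast growth factor signalling, was detected on all 3 hSRY-OFF arrays and no hSRY-ON array, so that it entered the test only through the group in which it was higher. Its value was 5.40, 5.66 and 5.93 in hSRY-OFF and 5.09, 4.86 and 4.85 in hSRY-ON (adjusted p = 0.0188). The hSRY-OFF mean lay 1.20-fold above the mean of the lowest levels detected on the hSRY-ON arrays. The other Il17rd probe, detected on all 6 arrays, changed by -0.76 and was not called (adjusted p = 0.0537).

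In the receptor role the calls of Il6ra, Il20rb, Il27ra, Il2rg and both Il28ra probes held when any 1 array was left out. Il11ra1 was no longer called without hSRY-OFF replicate 1 (adjusted p = 0.0527), Il13ra1 without hSRY-OFF replicate 1 (0.063) or 3 (0.0586), and Il17rd without hSRY-ON replicate 2 (0.0561); without any hSRY-OFF array Il17rd no longer passed the detection filter. Il18bp and Il20ra were called without hSRY-ON replicate 1 and lost without any other array: Il18bp without hSRY-OFF replicates 1, 2 and 3 and hSRY-ON replicates 2 and 3 had adjusted p = 0.12, 0.154, 0.0655, 0.118 and 0.0588, and Il20ra 0.0519, 0.113, 0.0917, 0.0786 and 0.0571. Dim probes gave smaller changes without background correction, 0.54 for Il6ra, 0.63 for Il20rb, -0.59 for Il27ra and -0.47 for Il2rg, all still called, and 0.16 for Il20ra, 0.20 for Il18bp and -0.19 for Il17rd, which were not.

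**Figure D3:**
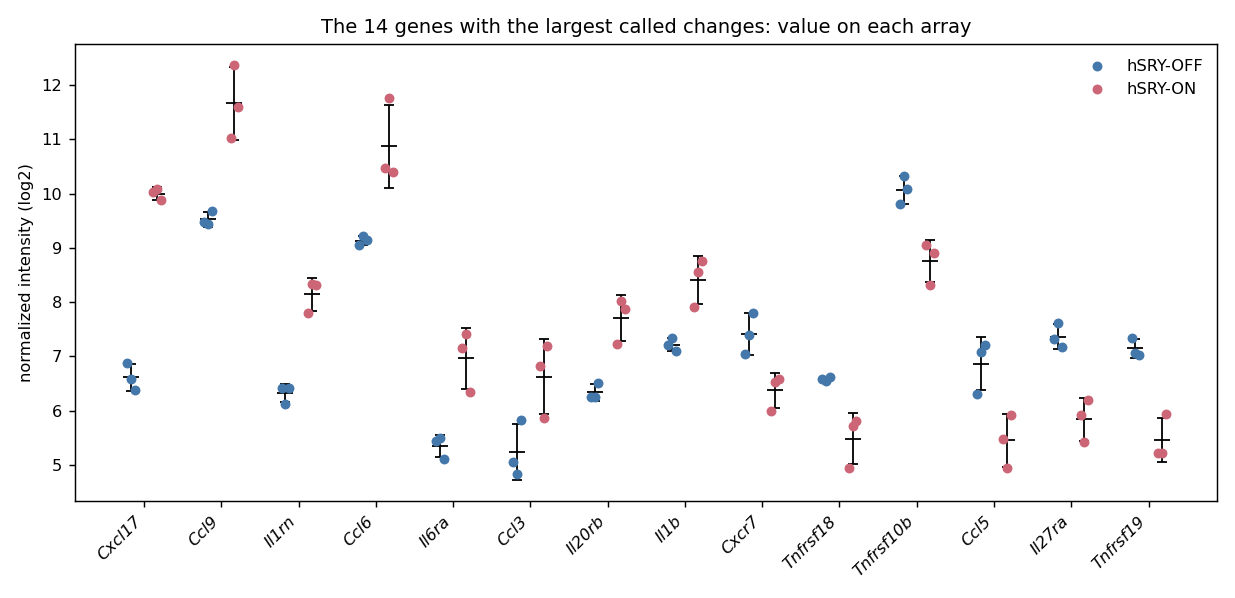
Normalized intensity (log2, y axis) on each array for the 14 genes with the largest called changes (x axis, ordered by change); each point is 1 mouse, and bars give the mean and SD of 3 mice per group. The groups do not overlap for any of the 14, but these were picked as called, and 46.6% of all tested probes did not overlap. Cxcl17 shows the widest gap with tight groups on both sides.

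Few TNF family ligands could be measured. Of their 15 probes 3 were tested and none was called, and 7 were detected on no array. Tnf itself was detected on 1 array of each group and was not tested. Tnfsf13b, the B cell survival factor BAFF, had values of 6.64, 6.72 and 6.81 in hSRY-OFF and 6.96, 7.42 and 8.07 in hSRY-ON. Its groups did not overlap, but the change of 0.76 did not pass (adjusted p = 0.0732); without hSRY-ON replicate 1 it was 1.02 and was called (adjusted p = 0.0147). Its other probe changed by 0.65.

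In the TNF receptor superfamily 5 probes were called lower and 1 higher of 17 tested, with a median change of -0.16. Both Tnfrsf19 probes are among the 5, and of all tested probes 13.3% were called lower and 13.6% higher. Tnfrsf19, a receptor without a death domain found on epithelial and neural progenitors, fell on both of its probes. The first had values of 7.34, 7.07 and 7.03 in hSRY-OFF and 5.22, 5.22 and 5.94 in hSRY-ON, 3.22-fold lower (log2 change -1.68, SE 0.22, adjusted p = 0.00323), and 1 of the 3 hSRY-ON arrays detected it. The other fell by 1.32 (adjusted p = 0.0228). Tnfrsf10b, the mouse death receptor for TRAIL, had values of 9.80, 10.32 and 10.09 in hSRY-OFF and 9.06, 8.32 and 8.90 in hSRY-ON, 2.48-fold lower (log2 change -1.31, SE 0.23, adjusted p = 0.00812). Every hSRY-ON lung was below every hSRY-OFF lung for these receptors. The other Tnfrsf10b probes were detected on no array. Tnfrsf18, or GITR, found on regulatory and activated T cells, had values of 6.58, 6.55 and 6.62 in hSRY-OFF and 4.94, 5.71 and 5.81 in hSRY-ON, 2.14-fold lower (log2 change -1.10, SE 0.23, adjusted p = 0.0149); its other probe changed by -0.49 (adjusted p = 0.0861). Tnfrsf25, a death-domain receptor of T cells, fell by 0.52 (adjusted p = 0.0418), whereas Tnfrsf4, or OX40, another T cell costimulator, rose by 0.53 (adjusted p = 0.0414). The other Tnfrsf25 probe was detected on no array.

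The main receptor of TNF itself, Tnfrsf1a, had 3 tested probes with changes from -0.16 to -0.105 and none called. Tnfrsf21, or death receptor 6, had changes of 0.20 and -0.31 on its probes, neither called. Tnfrsf10b and the first Tnfrsf19 probe stayed called when any 1 array was left out. Without hSRY-OFF replicate 1, 2 or 3 the second Tnfrsf19 probe (adjusted p = 0.0577, 0.0732 and 0.0767), Tnfrsf18 (0.0577, 0.0564 and 0.0527) and Tnfrsf25 (0.141, 0.0894 and 0.116) were not called, Tnfrsf25 was also lost without hSRY-ON replicate 3 (0.0694), and Tnfrsf4 was lost without hSRY-OFF replicate 1 (0.146) or 2 (0.128) and hSRY-ON replicate 2 (0.0703) or 3 (0.0829). Without background correction the changes of both Tnfrsf19 probes, Tnfrsf18, Tnfrsf25 and Tnfrsf4 were -0.58, -0.91, -0.33, -0.25 and 0.27, and Tnfrsf25 was no longer called there (adjusted p = 0.0513); Tnfrsf4 was not called with median scaling (0.0984).

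A pair of members shares the name but not the function. Il1rl1l, now named Tmed1, a cargo receptor of the secretory pathway, fell by 0.67 (adjusted p = 0.0201) and was no longer called without hSRY-OFF replicate 1, 2 or 3 (adjusted p = 0.0793, 0.0766 and 0.0553). Il4i1, a secreted amino acid oxidase of myeloid cells, changed by -0.60 (adjusted p = 0.186), and without hSRY-ON replicate 3 by -0.92, which was called (adjusted p = 0.0253).

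Where a gene had several tested probes they did not always give 1 answer. Among the 20 symbols with more than 1 tested probe, all probes had the same sign in 13, every probe was called in 2 (Tnfrsf19 and Il28ra), some but not all in 4 (Il17rd, Il20rb, Il27ra and Tnfrsf18) and none in 14. The probes of a gene can reach different transcripts, and the array reports each by itself.

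The hSRY-ON lungs differed more from each other than the hSRY-OFF lungs. The median SD over the tested members was 0.19 in hSRY-OFF and 0.34 in hSRY-ON, and 79 of 99 members, or 79.8%, varied more in hSRY-ON, against 73.6% of all tested probes. The members with the widest hSRY-ON range, picked after their values were seen, were led by Cxcl9, an interferon gamma-induced chemokine for activated T cells. Its value was 6.41, 7.80 and 7.81 in hSRY-OFF and 7.74, 4.87 and 8.96 in hSRY-ON. Cxcl10, induced by the same signal, was 5.20, 5.78 and 5.70 in hSRY-OFF and 6.17, 4.99 and 6.89 in hSRY-ON, and Cxcl13, a B cell attractant, was 6.07, 6.58 and 6.43 in hSRY-OFF and 6.18, 5.56 and 7.42 in hSRY-ON. All 3 were lowest in hSRY-ON replicate 2, which had the highest Ccl9 and Ccl6, and highest in hSRY-ON replicate 3, which had the highest sum of neutrophil markers. Their changes, between -0.15 and 0.46, were not called. Il18r1, a chain of the interleukin 18 receptor, was 9.86 in hSRY-ON replicate 1 and 8.20 and 8.09 in the others, around hSRY-OFF values of 8.60, 8.68 and 8.86. Over all 99 tested members no hSRY-ON lung held most of the extremes: replicates 1, 2 and 3 held the highest of the hSRY-ON values for 28, 34 and 37 members and the lowest for 34, 36 and 29. The member median was nonetheless lower in replicate 2, 0.022 above the hSRY-OFF means, than in replicates 1 and 3, 0.178 and 0.167.

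**Figure D4:**
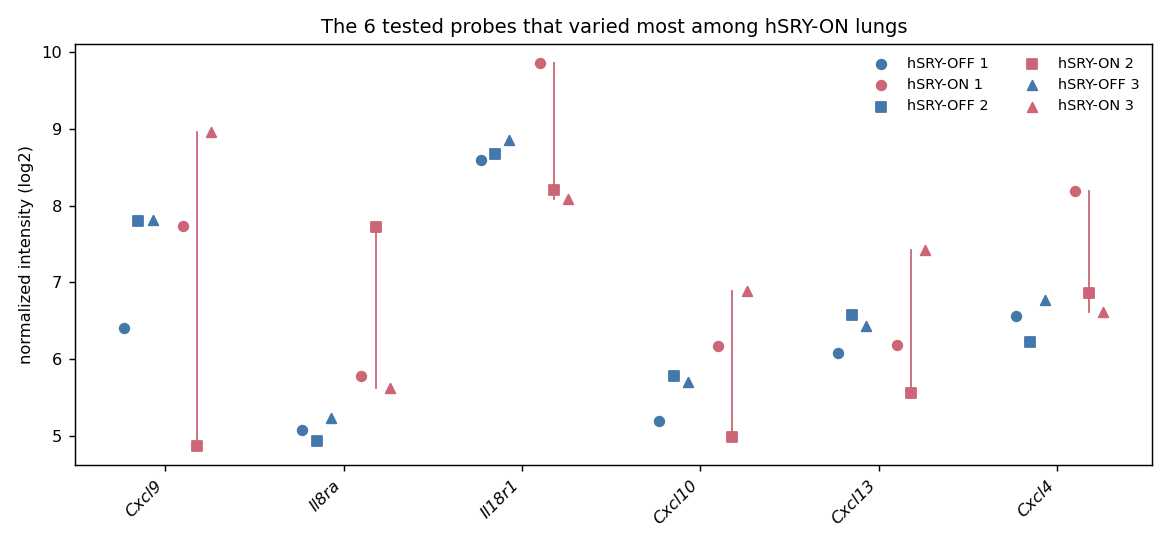
Normalized intensity (log2, y axis) on each array for the 6 tested members with the largest SD among the hSRY-ON lungs (x axis); symbols give the replicate and vertical lines the hSRY-ON range. Cxcl9 runs from 4.87 to 8.96 among the hSRY-ON lungs, and Cxcl9, Cxcl10 and Cxcl13 share their lowest lung, replicate 2, and their highest, replicate 3.

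The pathways below these receptors were followed with lists of genes chosen for their role. Of 28 tested genes of NF-kB, TNF receptor and IL-1 receptor signalling, 5 were higher and 3 lower, with a median change of 0.27; the 8 were 28.6% of the list, near the 26.9% of all tested probes. Tnfaip2, a TNF-induced gene, rose by 1.18 (adjusted p = 0.0043) and Ikbkg, the regulatory subunit of the IkB kinase, by 0.78 (adjusted p = 0.00815), whereas Traf5, an adaptor of TNF receptors, fell by 1.07 (adjusted p = 0.00443). Of 19 tested genes of JAK-STAT signalling 2 were higher and 0 lower, 10.5% of the list, with a median of 0.11: Osmr, the oncostatin M receptor chain, rose by 1.25 (adjusted p = 0.00675) and Ptpn6, a phosphatase of blood cells that restrains cytokine receptors, by 0.92 (adjusted p = 0.0107). Of 12 tested family genes with names outside the rule 2 were higher and 2 lower, 33.3% of the list, with a median of -0.18; Ackr3 and Pf4, which the array lists as the members Cxcr7 and Cxcl4, were left out. Cd27, a TNF receptor of lymphocytes, fell by 0.84 (adjusted p = 0.0126) and Cx3cl1, the membrane-bound chemokine fractalkine, rose by 0.84 (adjusted p = 0.0148). Fas, another TNF receptor, rose by 0.965 (adjusted p = 0.0215). Of 11 tested related cytokines 2 were higher and 0 lower, 18.2% of the list, with a median of 0.41: Ctf1, or cardiotrophin 1, rose by 0.45 (adjusted p = 0.0275) and Ebi3, a subunit of interleukins 27 and 35, by 0.86 (adjusted p = 0.0437).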

How the data were processed

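Lung RNA from 3 hSRY-OFF and 3 hSRY-ON male mice had been amplified with the Ambion TotalPrep kit and hybridised to Illumina MouseRef-8 BeadChips. The authors deposited a table of probe intensity without normalization and a detection p-value for each probe and array; the submitters' processing notes name limma. Here intensities were background-corrected from the detection p-values (normexp by control probes inferred from them, as in neqc, offset 16), quantile-normalized and log2-transformed, in limma 3.58.1 under R 4.3.3. Probes with a detection p-value under 0.05 on at least 3 of 6 arrays were fitted with lmFit and eBayes, group as the only term, and p-values were Benjamini-Hochberg adjusted over all 13841. The study's methods name TCC, a package made for counts, for its own comparison; it was not used here, since the deposited values are intensities.

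Intensities below the detection level carry little information on size, the subtraction of background widens fold changes of dim probes, and 3 arrays per group limit the precision. Each mouse was 1 sample. Members and lists were chosen with earlier results of these data known. Values per array are given for the 14 called genes of largest change and for chosen others. They are also given for probes detected on all arrays of 1 group and on none of the other. Every other called member is given by its change. Of each role the uncalled probe with the highest mean is named, and of each pathway list the 3 called genes with the smallest p. Tnf, Il6, Il1b, Il1a, Cxcl1, Ccl2 and Il10 are named whatever their values. Of the 159 symbols, 158 were matched to a current RefSeq symbol. The fit was checked on simulated data with known changes. Alternatives covered background, normalization, filter, variance model, array weights, threshold, replicate block and leaving out each array. The values of 1 member gene are not reported here.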

Additional observations from a re-analysis of the deposited data

How the results depend on the processing

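No member called here changed direction under those of the 12 alternatives, or of the 6 fits without an array, in which its probe was tested. Il17rd was not tested under 5 of them, and Ccl3, Ccl5, Il6ra, Il20ra, Tnfrsf18 and the first Tnfrsf19 probe not under 1, a stricter detection filter. At an adjusted p under 0.01, 12 members were called, 8 higher and 4 lower in hSRY-ON (12.1%, against 9.58% of all tested probes). The median change of the tested members was 0.069 without background correction, 0.06 without it and with median scaling, and 0.04 with no detection filter. When an array was left out, the number called ran from 16 to 42 (over all probes from 1504 to 4384), the number higher from 10 to 25, the number lower from 4 to 17 and the median change from 0.124 to 0.235. The lowest numbers came from leaving out hSRY-OFF replicate 1, 2 or 3 (16, 16 and 17 called) and the highest from leaving out hSRY-ON replicate 1. All other settings called 24 to 35 members. With array weights Il8ra (adjusted p = 0.0433) and Tnfsf13b (0.0288) were called, and Cxcr4 was called without background correction and with median scaling (0.0359). Of the calls lost elsewhere, Il18bp, Tnfrsf25 and Tnfrsf4 were lost with no detection filter (0.0635, 0.0527 and 0.053) and with a variance trend (0.076, 0.0607 and 0.0554), Il20ra with the variance trend (0.0618), Il18bp also with median scaling (0.0813) and Tnfrsf25 with cyclic loess (0.0556).

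No label says that a replicate number pairs the arrays. The deviations of same-numbered arrays from their group means correlated at -0.107, 0.096 and -0.093, and those of differently numbered arrays at -0.088 to 0.162. With 3 arrays per group these values cannot settle whether the numbers pair mice. With the replicate number as a block, 26 members were called, 16 higher and 10 lower, of which 23 were also called without the block; Il17rd, Il18bp, Il1rl1l, Il20ra, Il33 and Tnfrsf25 lost their call and Cxcr4 gained one (0.0451); over all probes 2655 were called, against 3728. Members at the edge of detection were limited by signal over background: 32 of the 127 untested member probes were detected on 1 or 2 arrays, 16 of them in hSRY-OFF alone and 9 in hSRY-ON alone.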
